A study of Homo sapiens with 2 samples.

Results

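The mucin genes described here are MUC1, MUC2, MUC4, MUC5B, MUC6, MUC13, MUC15, MUC16, MUC17 and MUC20, chosen as a list of mucins of the pancreatic duct. Every transcript row of the arrays whose gene name in the files was one of these 10 symbols was taken, which gave 37 of 45033 transcript rows and 10 of 23595 genes. MUC1 had 21 of the rows, MUC15 and MUC20 had 3 each, MUC4, MUC6 and MUC17 had 2 each, and MUC2, MUC5B, MUC13 and MUC16 had 1 each. Each of the 37 rows was a summary of 3 probes.

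The rows were measured in Panc1, an established line of human pancreatic ductal carcinoma cells, pretreated for 24 h with clofibrate or with DMSO, the solvent control. Clofibrate, a lipid-lowering fibrate, is a ligand of the nuclear receptor PPARalpha, and its dose is not given in the sources used here. Total RNA of each treatment was hybridised to 1 NimbleGen 1-colour array, so there was 1 clofibrate array and 1 DMSO array, without replicates, and no test, standard error or p-value could be had. With so few arrays the precision of all values below is limited.

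Values are log2 of the intensities that the authors summarised with RMA, and differences are clofibrate minus DMSO. The row of 5000 random probes, which match no intended target, read 5.59 on the clofibrate array and 5.61 on the DMSO array on this log2 scale and is used as the background level. Over all transcript rows the arrays had the same median intensity, 402. As a measure of error, differences of mucin rows are set beside the SD of the difference over rows of like mean level. That SD was taken in 40 bins of all rows, and for the gene lists it is given for only some genes. This SD describes the scatter between these 2 arrays and holds any real differences as well. Probes differ in how strongly they bind, so differences are read between arrays within a row. The marker sums and the sorting of rows by level below carry these probe effects, and they do not rank genes by expression.

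Part of the duct marker set lay above the random probes, as did part of the marker sets of other cell types. Of 12 duct markers, 6 lay above the random probes in every row on both arrays, among them the keratin genes KRT8 (9.64 with clofibrate and 9.64 with DMSO) and KRT18 (9.51 with clofibrate and 9.41 with DMSO). The carbonic anhydrase gene CA2 was another, at 11.60 with clofibrate and 11.96 with DMSO. The duct keratin gene KRT19 averaged 5.12 with clofibrate and 5.65 with DMSO over its 2 rows, and the chloride channel gene CFTR read 5.58 with clofibrate and 5.44 with DMSO, all close to the random probes. The summed intensity of the duct markers was 5889 with clofibrate and 6873 with DMSO, of which CA2 alone gave 3105 with clofibrate and 3991 with DMSO. Of the 12 genes 6 were above 0 and 6 below, with a median difference of -0.02. Counted the same way, 6 of 10 acinar, 6 of 10 fibroblast and stellate, 5 of 10 islet and 4 of 10 leukocyte markers lay above the random probes in every row. Islet markers summed to 5058 with clofibrate and 5064 with DMSO, of which PAX6 alone gave 3493 with clofibrate and 3716 with DMSO. Acinar markers summed to 2488 with clofibrate and 2649 with DMSO. Fibroblast and stellate markers summed to 2485 with clofibrate and 2546 with DMSO, and leukocyte markers to 1422 with clofibrate and 1329 with DMSO. Of the markers of intestinal goblet cells 6 of 10 lay above the random probes in every row, and they summed to 1483 with clofibrate and 1447 with DMSO. Those of gastric mucous cells summed to 377 with clofibrate and 390 with DMSO, and 1 of 9 genes lay above the random probes in every row on both arrays. The part of cell composition or cell state in the mucin values was not tested.

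Mucins are long glycoproteins whose core holds repeated stretches rich in serine and threonine, to which chains of sugars are attached in the Golgi. They fall into gel-forming mucins, which are secreted and join end to end into mucus, and membrane-bound mucins, which stay anchored at the apical cell surface and carry signals through short tails inside the cell. Normal pancreatic ducts make few of them, and pancreatic ductal carcinomas are known for making more and different ones.

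The start regions of 3 of these genes are shown because they carry the rows that the results turn on: MUC1 with the highest difference, MUC16 with the lowest, and MUC17 with the difference furthest from 0 among brightly lit mucin rows. They are the 250 bases before the gene start in RefSeq (GRCh38.p14), at chr1:155192916-155193165 on the minus strand, chr19:9065752-9066001 on the minus strand and chr7:101019831-101020080 on the plus strand. Where RefSeq gave several starts, as for MUC1 and MUC16, the outermost was taken. Capitals mark matches, on either strand, to 3 motifs. The GC box, to which SP1 binds, was searched as GGGCGG. The TATA box was searched as TATAAA. The half-site of nuclear receptors such as PPARalpha was searched as AGGTCA.
MUC1: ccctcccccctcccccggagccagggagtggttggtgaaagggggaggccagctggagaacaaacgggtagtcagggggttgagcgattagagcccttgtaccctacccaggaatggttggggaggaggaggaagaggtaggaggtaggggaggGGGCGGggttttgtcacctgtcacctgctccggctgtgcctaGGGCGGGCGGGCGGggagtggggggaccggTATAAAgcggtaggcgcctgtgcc
MUC16: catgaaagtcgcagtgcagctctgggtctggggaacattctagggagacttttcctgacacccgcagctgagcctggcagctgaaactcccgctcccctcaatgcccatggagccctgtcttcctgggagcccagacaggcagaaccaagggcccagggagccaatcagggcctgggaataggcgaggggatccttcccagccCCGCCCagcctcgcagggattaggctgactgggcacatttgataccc
MUC17: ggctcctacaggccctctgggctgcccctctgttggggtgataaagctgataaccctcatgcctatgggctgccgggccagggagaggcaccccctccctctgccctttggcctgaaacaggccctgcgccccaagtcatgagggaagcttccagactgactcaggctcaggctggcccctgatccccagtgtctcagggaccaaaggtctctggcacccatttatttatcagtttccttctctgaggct

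The MUC1 window held 4 GC boxes, of which 3 overlapped in 1 run, and 1 TATA box, which began 24 bases before the start. The MUC16 window held 1 GC box, and the MUC17 window held no match to any of the 3 motifs. The half-site was found once in the windows of MUC2 and MUC4, and not in those of MUC1, MUC13, MUC16 and MUC17, which are the 6 mucin genes that matched the RefSeq promoter table. Of 27305 promoters of the same length, 12.1% held the half-site, 42.3% the GC box and 11.1% the TATA box. A match is a description of these letters, and no binding was measured.

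The comparison asks what clofibrate pretreatment changed in the mRNA of these cells relative to DMSO. Among the mucin rows, 1 MUC1 row was at least 2-fold higher with clofibrate, and 1 row each of MUC16 and MUC20 was at least 2-fold lower. The other 34 rows differed by less than 2-fold, and the median over the 37 rows was 0.01, beside 0.00 over all rows. Of all 45033 transcript rows, 1.44% were higher by 2-fold or more, 1.49% were lower by as much, and 2.94% passed in either direction. The mucin share was 3 of 37 rows (8.11%), and each of the 3 rows had a mean level from 6 to under 8, where differences between the arrays scattered widely. In that range 3 of 16 mucin rows and 6.92% of all rows were at least 2-fold different (the range was chosen after the values were seen).

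None of the 11 bright mucin rows (rows whose mean reached the median over all rows, 8.65) was 2-fold different, and 0.369% of all bright rows were. Over the 37 rows, 4 differed by more than 2 SD of rows of like level (10.8%), against 4.77% of all transcript rows: MUC1 U60259, MUC16 NM_024690, MUC20 NM_152673 and MUC17 AJ606307. Averaged by gene, MUC1, MUC5B, MUC6 and MUC17 were above 0 and the other 6 genes below it, with a median of -0.03, against 0.00 over all genes, of which 50.4% were above 0. MUC16 was the 1 gene at least 2-fold lower, where 0.911% of all genes were, and no mucin gene was 2-fold higher by its mean. The genes thus lay on both sides of 0.

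**Figure D1:**
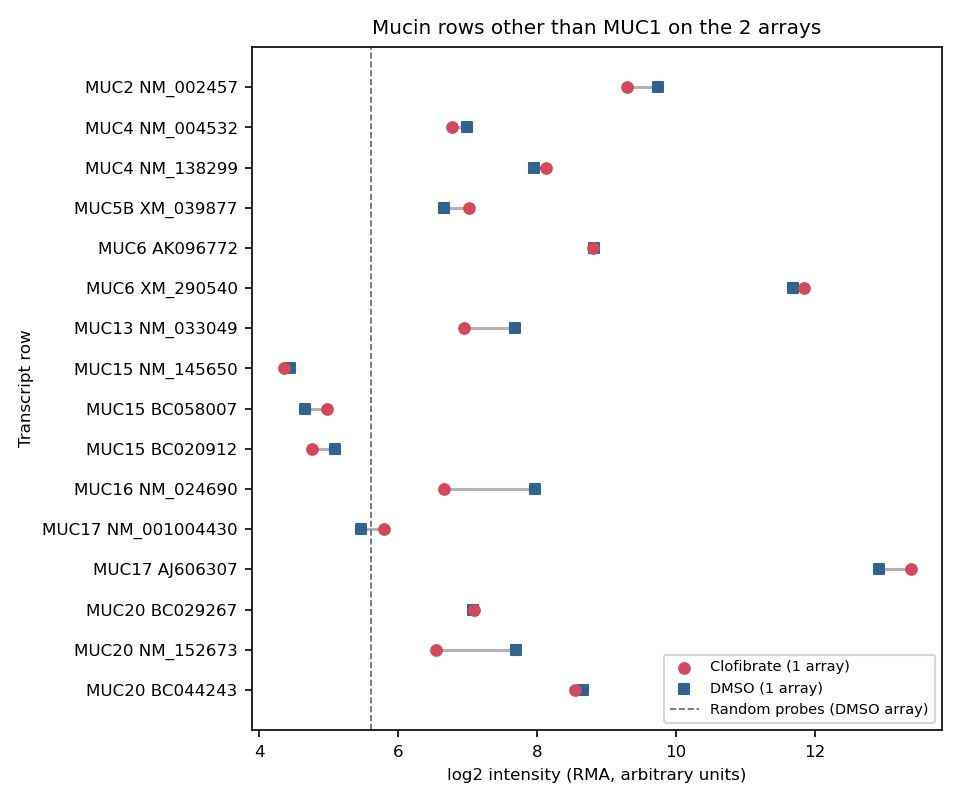
Log2 intensity (x axis) of the 16 rows of the 9 mucin genes other than MUC1 (y axis), with the clofibrate array as circles, the DMSO array as squares and the random probes of the DMSO array as a dashed line. MUC16 and MUC20 NM_152673 show the widest gaps, with clofibrate to the left of DMSO, and the 3 MUC15 rows lie left of the dashed line on both arrays.

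Among the gel-forming mucins no row differed 2-fold or 1.5-fold. MUC6, made in gastric glands and pancreatic ducts, had 2 rows that cover neighbouring stretches of chromosome 11 without overlap. The row XM_290540 (1007686 to 1026712, hg18) read 11.83 with clofibrate and 11.68 with DMSO, a difference of 0.15 where the SD over rows of like level was 0.23. The row AK096772 (1002823 to 1007276) read 8.80 with clofibrate and 8.82 with DMSO, a difference of -0.02. Both MUC6 rows were bright, and both differences were smaller than the scatter.

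MUC2, the main mucin of intestinal mucus, read 9.29 with clofibrate and 9.73 with DMSO, a difference of -0.45 on the log2 scale, or 1.36-fold lower (NM_002457, chromosome 11, 1064874 to 1094416). This was 1.42 times the SD over rows of like level, 0.31. MUC5B, a mucin of airways and saliva, read 7.02 with clofibrate and 6.66 with DMSO, a difference of 0.35 where that SD was 0.59 (XM_039877, chromosome 11, 1200929 to 1239976). MUC2 was thus lower and MUC5B higher with clofibrate, the second by less than the scatter.

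The membrane-bound mucins had 33 of the 37 rows and the gel-forming ones 4, and the 3 rows past 2-fold were among the 33. MUC16 encodes the CA125 antigen, a very large mucin that binds mesothelin on neighbouring cells. Its row NM_024690 (chromosome 19, 8820520 to 8953018) read 6.66 with clofibrate and 7.97 with DMSO, intensities of 101 with clofibrate and 251 with DMSO. The difference was -1.32 on the log2 scale, 2.49-fold lower, and its size was 2.49 times the SD over rows of like level (0.53). Of all transcript rows, 241 had a lower difference. Both values were above the random probes, and the gene had no other row against which to read it.

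MUC20, which binds the receptor MET, had 3 rows over nearly the same stretch of chromosome 3 (196933515 to 196946094), and they did not give 1 answer. The row NM_152673 read 6.54 with clofibrate and 7.70 with DMSO, a difference of -1.15 or 2.22-fold lower, whose size was 2.13 times the SD of like rows. The row BC029267 read 7.09 with clofibrate and 7.08 with DMSO. The row BC044243 read 8.55 with clofibrate and 8.66 with DMSO, a difference of -0.11. The 2 rows other than NM_152673 thus differed by less than the scatter, and the mean over the 3 rows was -0.42. RefSeq lists a MUC20 pseudogene, MUC20P1, on the same chromosome, so the rows are open to signal from a related sequence, which was not tested.

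MUC4, the partner of the receptor ERBB2 and a mucin that normal pancreas hardly makes, lies next to MUC20. Its row NM_138299 (chromosome 3, 196959310 to 197023545) read 8.12 with clofibrate and 7.95 with DMSO, and its row NM_004532 read 6.77 with clofibrate and 6.98 with DMSO. The differences, 0.17 and -0.21, had opposite signs and were both smaller than the scatter of like rows. MUC13, a mucin with EGF-like domains found in gut and pancreatic tumours, read 6.95 with clofibrate and 7.68 with DMSO (NM_033049, chromosome 3, 126106978 to 126136270). The difference was -0.73 on the log2 scale, 1.66-fold lower, or 1.39 times the SD of like rows in size.

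MUC17, a membrane mucin of the intestinal brush border, gave a bright row and a dim one at the same place. The row AJ606307 (chromosome 7, 100450083 to 100488740) read 13.37 with clofibrate and 12.92 with DMSO, intensities of 10604 with clofibrate and 7747 with DMSO. It was 0.45 higher, or 1.37-fold, which was 2.14 times the SD of 0.21 over rows of like level. The row NM_001004430, with the same start and an end 2 bases further on, read 5.80 with clofibrate and 5.46 with DMSO. As the DMSO value did not reach the random probes, that row was at least 1.14-fold higher with clofibrate. Both MUC17 rows were higher with clofibrate, but the dim row by 0.34, less than the SD of like rows, 0.59. The deposited files do not place the 3 probes of each row within the transcript, and which row follows the gene was not tested.

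MUC15, a small membrane mucin, was not above background. Its 3 rows read 4.35, 4.97 and 4.76 with clofibrate and 4.44, 4.66 and 5.09 with DMSO (NM_145650, BC058007 and BC020912), below the random probes on both arrays. No fold is given for it.

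MUC1 is the best studied membrane mucin of pancreatic cancer, and its tail inside the cell binds beta-catenin and other signalling proteins. Its 21 rows stand for transcript variants of 1 short gene on chromosome 1, and 3 probes each cannot always tell such variants apart. They were all above the random probes, with levels from 6.66 to 11.40 (median 8.34) on the clofibrate array and from 5.96 to 11.44 (median 8.06) on the DMSO array. Of the 21 differences, 13 were above 0 and 8 below it, with a median of 0.17 and a mean of 0.23. The rows are not replicates, since they come from the same 2 arrays and share sequence.

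The row U60259 stood apart from the other 20. It read 8.70 with clofibrate and 6.47 with DMSO, intensities of 416 with clofibrate and 88.4 with DMSO, a difference of 2.23 or 4.71-fold. This was 4.21 times the SD of like rows (0.53), and 22 of all 45033 rows had a higher difference. U60259 spans 153425222 to 153429283 (hg18), and 12 other MUC1 rows start at the same base and end 1 base earlier. Those 12 differed by -0.26 to 0.43, with a median of 0.08, so the rows that cover the same stretch did not show the difference of U60259.

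Without U60259 the MUC1 differences ran from -0.27 to 0.70, with a mean of 0.13 and an SD of 0.27 over 20 rows. With it the SD over the 21 rows was 0.53. Of 37 genes with at least 10 rows on the arrays, 4, MUC1 included, had an SD over their rows of at least that size, and the median was 0.27. The spread of MUC1 without U60259 was thus close to that of a gene with many rows.

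The 7 bright MUC1 rows differed by -0.14 to 0.43, with a median of 0.01. The brightest of them, AY327586, read 11.40 with clofibrate and 11.44 with DMSO, a difference of -0.04 against an SD of 0.24. The row AY327585 read 9.49 with clofibrate and 9.06 with DMSO, a difference of 0.43 or 1.33 times the SD of 0.32. AY327590 differed by 0.01, AY327595 by -0.04, AY327599 by -0.14, AY327600 by 0.17 and AY327589 by 0.14. Thus 1 of the 7 bright rows passed 1 SD of like rows, where 30.0% of all bright rows did.

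Among the 14 dimmer MUC1 rows, U60259, NM_001018017 and X52229 differed by more than 1 SD of like rows, and all 3 were higher with clofibrate. This was 3 of 14 rows, where 27.9% of all rows below the median level passed 1 SD. NM_001018017 read 6.66 with clofibrate and 5.96 with DMSO, a difference of 0.70 where the SD was 0.62. X52229 read 8.60 with clofibrate and 8.15 with DMSO, a difference of 0.45 where the SD was 0.39. The files place X52229 over 328087 bases, from 153101218 to 153429304, while the other 20 rows span between 3217 and 4403 bases. Of the other 11 dimmer rows, AY327583 (0.36), AY327592 (0.33), NM_001018016 (0.32), AY327596 (0.30), AY327582 (0.28) and J05582 (0.25) were above 0. J05581 (-0.27), AF348143 (-0.26), NM_001018021 (-0.24), AY327584 (-0.20) and X52228 (-0.02) were below it.

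**Figure D2:**
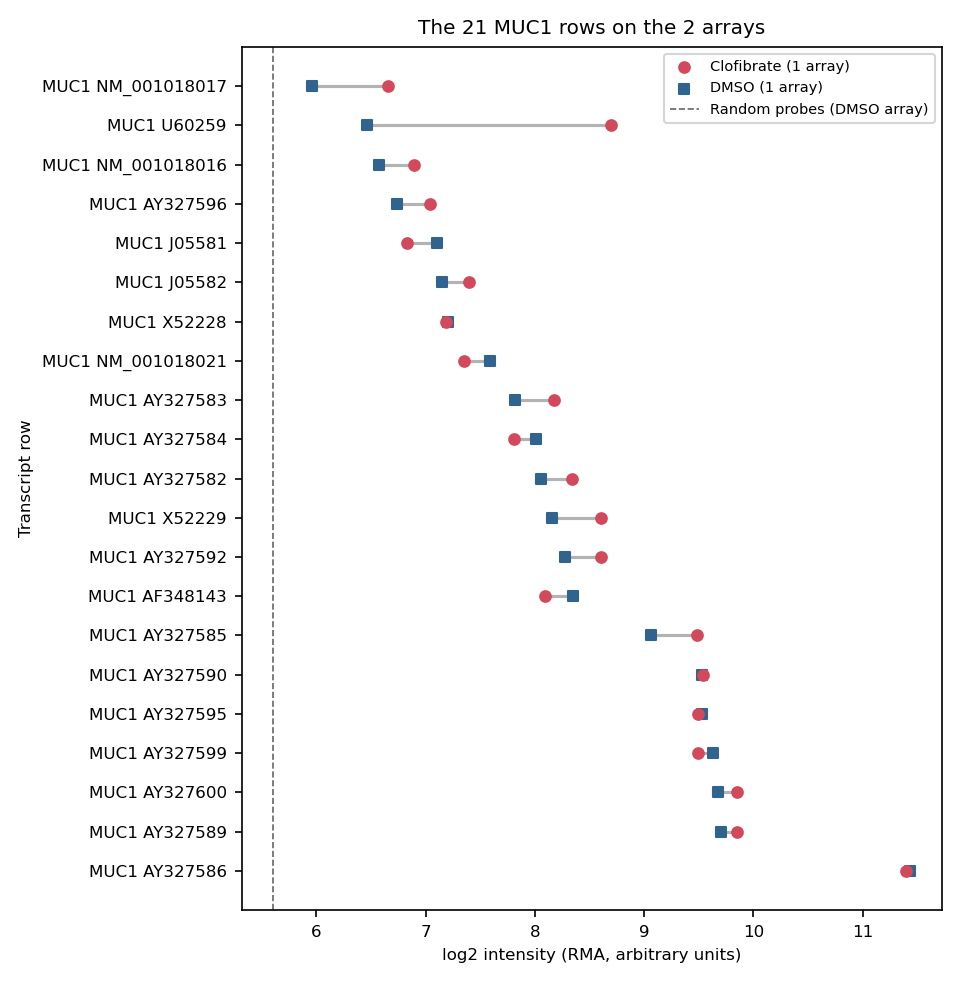
Log2 intensity (x axis) of the 21 MUC1 transcript rows (y axis, ordered by DMSO level), with the clofibrate array as circles, the DMSO array as squares and the random probes of the DMSO array as a dashed line. U60259 reads 8.70 with clofibrate and 6.47 with DMSO, and the other 20 rows differ by at most 0.70.

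The plot of difference against level sets the 37 rows over the scatter of the whole array. That scatter was widest a little above the random probes, with an SD of 0.62 in the widest bin and also in the bin of NM_001018017. It was 0.34 in the lowest bin, which holds 2 of the MUC15 rows, and 0.21 in the highest, which holds MUC17 AJ606307. A 2-fold difference therefore lay within 2 SD for the dimmest MUC1 rows, while 1.37-fold lay outside it for MUC17. At a threshold of 1.5-fold, 2 mucin rows were higher (MUC1 U60259 and NM_001018017) and 3 lower (MUC13, MUC16 and MUC20 NM_152673), against 6.41% of all rows higher and 6.42% lower.

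**Figure D3:**
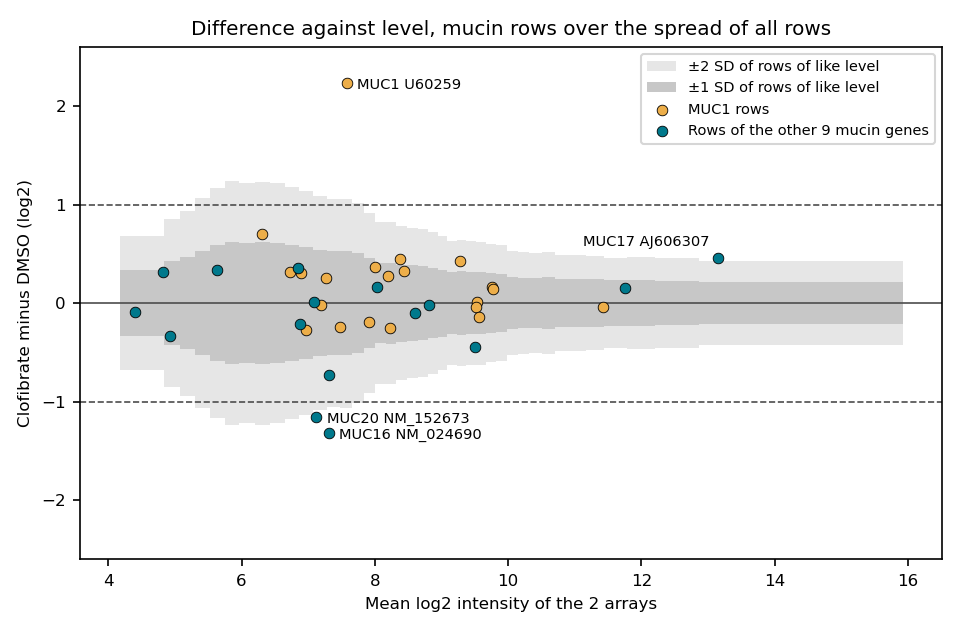
Clofibrate minus DMSO on the log2 scale (y axis) against the mean log2 intensity of both arrays (x axis) for the 21 MUC1 rows and the 16 rows of the other 9 mucin genes, over bands of 1 and 2 SD of all rows of like level; dashed lines mark 2-fold. The 4 labelled rows lie outside 2 SD, and MUC17 does so at 0.45.

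Mucins outside the 10 genes were read beside them, and 11 of 14 listed genes were on the arrays. MUC5AC, the gastric gel-forming mucin that pancreatic cancers often make, read 10.29 with clofibrate and 10.36 with DMSO, a difference of -0.07. MUC3B, a membrane mucin neighbouring MUC17, read 9.17 with clofibrate and 9.40 with DMSO. Neither difference exceeded the SD of like rows. MUC12, from the same stretch of chromosome 7, read 5.92 with clofibrate and 4.91 with DMSO, and since DMSO did not reach the random probes it was at least 1.24-fold higher. It alone of the list passed 2-fold on the values as measured (1.01), against 1.03% of all genes in that direction.

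The salivary mucin gene MUC7 read 6.86 with clofibrate and 6.47 with DMSO, a difference of 0.38 that was smaller than the SD of like rows, 0.59. The 2 rows of MUC19 differed in sign (-0.51 and 0.80). Of the 2 rows of MUC21, BC107478 read 11.14 with clofibrate and 10.93 with DMSO, and the other lay below the random probes on both arrays, as did both rows of EMCN. The surface proteins CD164 (-0.07), HAVCR1 (-0.10), MCAM (-0.25) and PODXL (0.15) stayed within 1.5-fold by the mean of their rows. The 2 rows of HAVCR1 differed in sign (-0.53 and 0.33). The list had 5 genes above 0 and 6 below, with a median of -0.07.

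The enzymes that build the sugar chains of mucins did not all behave alike. The GALNT enzymes attach the first sugar to serine or threonine. Of 12 measured, 5 were above 0 and 7 below, with a median of -0.04. GALNT4 was at -0.61 (6.91 with clofibrate and 7.52 with DMSO), where the SD of like rows was 0.54. It was the 1 gene of this list past 1.5-fold, where 4.62% of all genes were lower by that much. GALNT5 was at -0.42, GALNT3 at 0.26, GALNT12 at 0.25 and GALNT2 at 0.18.

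The enzymes that extend and cap those chains all averaged above 0. Of 14 core and capping genes measured, 14 were above 0, against 50.4% of all genes, and the median was 0.21, against 0.00 over all genes. Some lay barely above 0, such as GCNT3 (0.01) and C1GALT1C1 (0.01). The list was chosen with earlier results of these data known, so the count is not independent support for a shared direction. ST3GAL1, a sialyltransferase that caps the core chain, read 7.77 with clofibrate and 7.16 with DMSO, a difference of 0.61 where the SD of like rows was 0.53. By the mean of its rows it was the 1 member past 1.5-fold (4.53% of all genes were higher by that much). ST6GALNAC4 (0.53) and ST6GALNAC1 (0.49), which add sialic acid to the first sugar, were also higher, as were the core-forming galactosyltransferase C1GALT1 (0.44) and ST3GAL2 (0.38).

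Means over rows hid some disagreement. Of the 27 rows of these 14 genes, 19 were above 0. With each gene read from its brightest row 11 of 14 were, with FUT2 (-0.33), ST6GALNAC2 (-0.17) and FUT3 (0.00) at or below 0. Of the 14 genes, 11 had every row above the random probes on both arrays. Read only from rows above the random probes on both arrays, 12 of 13 genes were above 0, as GCNT4 had no such row. FUT2 averaged above 0 through a row that lay below the random probes on both arrays (0.98). No gene of the list was 2-fold different. Whether the direction would recur in other cultures cannot be told from 1 array per treatment.

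Genes of mucin assembly and packaging were split, with 7 of 16 above 0 and 9 below and a median of -0.11. Furthest from 0 among those above the random probes were TGM3 at -0.54, a transglutaminase, RAB3D at 0.54, a GTPase of secretory granules, and ERN2 at 0.50, a stress sensor of mucus-making cells. CLCA1, a secreted protease of mucus, was at 0.21. AGR2, which folds mucins in the endoplasmic reticulum, read 7.40 with clofibrate and 7.57 with DMSO in its row NM_006408, and its row BC015503 lay below the random probes on both arrays. By the mean of its rows no gene of this list was 1.5-fold different. The brightest row of TFF3, NM_003226, read 6.23 with clofibrate and 7.30 with DMSO, a difference of -1.07 where the SD of like rows was 0.59. The other TFF3 row lay below the random probes on both arrays. Of all transcript rows, 1.49% were at least 2-fold lower.

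Transcription factors that act on mucin promoters had 10 of 20 genes above 0 and a median of 0.01. FOXA1, a factor of endodermal epithelia, read 6.09 with clofibrate and 6.88 with DMSO, a difference of -0.80 where the SD of like rows was 0.61. By the mean of its rows it was the 1 of 20 members past 1.5-fold, where 4.62% of all genes were lower by that much. KLF4 was at -0.44, with both of its rows below 0, FOXA3 at -0.42, SOX2 at -0.31 and RELA, an NF-kB subunit, at 0.24.

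Proteins that bind mucins at the cell surface had 8 of 14 genes above 0 and a median of 0.06. ICAM1, an adhesion molecule that binds MUC1, read 8.49 with clofibrate and 7.66 with DMSO, a difference of 0.83 where the SD of like rows was 0.41. By the mean of its rows it was the 1 of 14 members past 1.5-fold, where 4.53% of all genes were higher by that much. The 6 rows of EGFR ran from -0.28 to 1.06, with a mean of 0.19. Its row NM_201284 was at 1.06 (SD of like rows 0.38) and its brightest row, BC094761, at -0.15. MSLN, the mesothelin that MUC16 binds, read 6.55 with clofibrate and 7.01 with DMSO (-0.46), a difference smaller than the SD of like rows, 0.59. ERBB2, the partner of MUC4, was at 0.37, LGALS3, a galectin, at -0.32 and SRC at 0.20. The MUC20 partner MET was at -0.07 and the MUC1 partner CTNNB1 at -0.02.

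Proteases that process or shed membrane mucins had 8 of 10 genes above 0 and a median of 0.29, which was 0.16 when genes were read from their brightest rows, where 6 of 10 were above 0. Of the 18 rows of these genes, 9 were above 0. ELANE, the neutrophil elastase, read 6.54 with clofibrate and 5.91 with DMSO, a difference of 0.64 where the SD of like rows was 0.62. By the mean of its rows it was the 1 of 10 members past 1.5-fold, where 4.53% of all genes were higher by that much. NCSTN, a subunit of gamma-secretase, read 10.41 with clofibrate and 9.89 with DMSO, a difference of 0.52 where the SD of like rows was 0.26. ST14, a surface serine protease, was at 0.40, ADAM9 at -0.29 and FURIN at 0.17. The MUC1 sheddase ADAM17 was at 0.11.

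**Figure D4:**
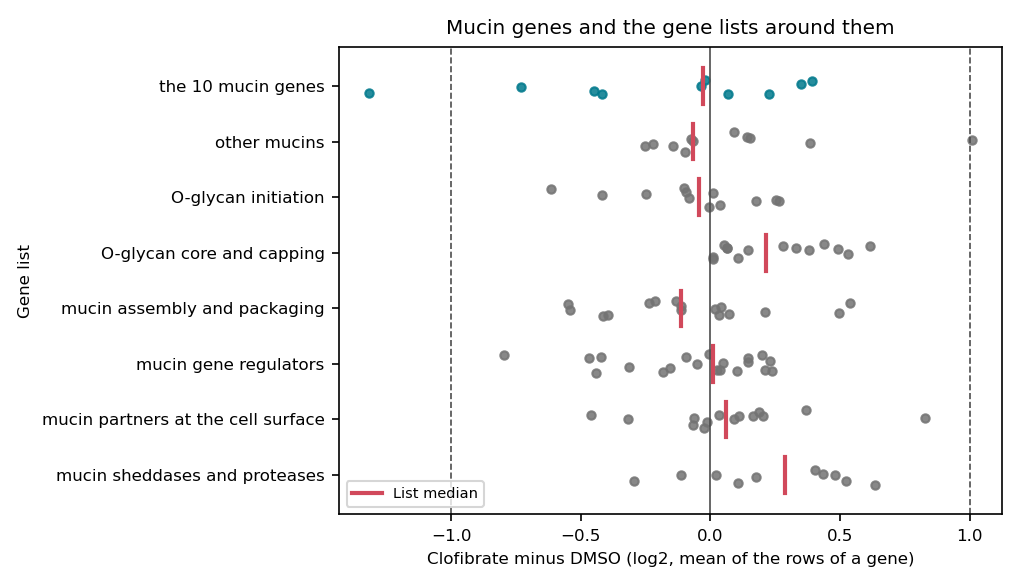
Clofibrate minus DMSO on the log2 scale (x axis), as the mean over the rows of a gene, for the 10 mucin genes and 7 gene lists around them (y axis), with 1 point per gene, list medians as bars and 2-fold as dashed lines. The 14 core and capping genes lie above 0 by this mean, with a median of 0.21 (12 of 13 when only rows above the random probes are read). The 10 mucin genes lie on both sides with a median of -0.03. Genes and lists were chosen with earlier results of these data known.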

How the data were processed

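Total RNA of Panc1 cells, 1 clofibrate and 1 DMSO culture sample, was measured on NimbleGen 1-colour (Cy3) arrays, per the labels. The authors deposited linear intensities, 1 per transcript, made with RMA per the submitters' processing notes. The version of RMA is not given in the sources used here. Where RMA normalises between arrays, as it commonly does, a change common to most genes disappears. Positions are on hg18 per the file headers. A column without a definition, SE_EXPRS, was left out.

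Log2 of these intensities was taken with no filter and no pseudocount. Gene IDs of 38916 of 42947 rows with a symbol matched RefSeq (GRCh38.p14), used for current symbols. A gene's level is the mean of its rows. A row at or below the random probes on 1 array gives a bound. No test was run, as each group had 1 array. All mucin rows, all genes of the list of other mucins, and up to 5 genes of each other list with the largest differences above the random probes are named, except 1 gene that is not reported here; AGR2, CTNNB1, MET, ADAM17 and the genes named for their brightest row were added after their values were seen. The mucin genes and the gene lists were chosen with earlier results of these data known. Alternatives were other scalings, the series matrix, a pseudocount of 50, level filters, a 1.5-fold threshold and the brightest row. The software was limma 3.58.1 in R 4.3.3, and matplotlib 3.10.9, pandas 2.3.3 and numpy 2.4.6 in Python 3.11.15.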

Additional observations from a re-analysis of the deposited data

Results flagged for a closer look

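Outside the mucin genes and the lists, 37 rows carry the word mucin in their description. Of these 1, FCRLM1 AF329491, was at least 2-fold lower on the values as measured (-1.01). Its clofibrate value lay below the random probes, so the row gives only a bound, which is under 2-fold. Another 1 was at least 2-fold higher with clofibrate while above the random probes on both arrays. The higher one is XM_377506 of EMR4, now ADGRE4P, an adhesion receptor gene of the mucin-like EMR group that is a pseudogene in humans. It read 7.71 with clofibrate and 6.06 with DMSO, a difference of 1.65 where the SD over rows of like level was 0.57. It drew attention because it is signal in rows that no comparison used, above its level in the DMSO sample. Of all transcript rows, 1.44% were at least 2-fold higher and 1.49% lower. The value rests on 1 row on 1 pair of arrays.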

How the results depend on the processing

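Quantile normalization, median centring and loess on level changed the sign of none of the 37 mucin rows and moved them by at most 0.024, and the series matrix held the same values. These 4 settings left 1 row past 2-fold upward and 2 downward. With a pseudocount of 50 the row of MUC1 U60259 was at 1.75, and MUC16 at -0.996 and MUC20 NM_152673 at -0.85 were under 2-fold, so 0 rows were lower by that much. Among rows at or above the median level 0 were higher and 0 lower, because the 3 rows are dimmer than that. A threshold of 1.5-fold gave 2 higher and 3 lower. The median over the mucin genes lay between -0.07 and -0.01, and the median of the core and capping enzymes between 0.11 and 0.28. The median of the assembly genes lay between -0.15 and 0.02. No paired analysis was possible because there was a single array of each kind, and leaving 1 out would leave no comparison. At levels near the random probes, scatter limits what these arrays can show.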
